A study of Homo sapiens with 18 samples.

Results

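ETS genes encode transcription factors that share a DNA-binding domain, and 9 of them were followed across all 18 arrays of the series: ERG, ETV1, ETV4, ETV5, ETS1, ETS2, ELF3, ELF5 and EHF. Members were matched by name in the platform annotation. The 9 names were chosen with earlier results of these data known. Each of the 9 genes had 1 transcript cluster, the probe group that an array reads as a gene, out of 33297 clusters in all and 21214 with a gene symbol. ERG was high in VCaP and low in LNCaP, and ETV1 was high in LNCaP and low in VCaP. In VCaP, androgen raised ERG 2.76-fold and knockdown of PSF lowered it 3.11-fold. In LNCaP, androgen raised ETV1 and lowered ELF3, and knockdown of CTBP1-AS raised ELF3.

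As background, ETS proteins bind DNA at a core of GGAA. In prostate epithelium ELF3, ELF5, EHF and SPDEF belong to the epithelial branch of the family. ERG, ETV1, ETV4 and ETV5 are seldom expressed there, but become oncogenes in prostate cancer when a rearrangement places them under the control of an androgen-responsive gene. VCaP carries the fusion of TMPRSS2 with ERG. LNCaP carries a rearrangement that places ETV1 at the locus of MIPOL1, without a known fusion transcript.

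Both cell lines are human prostate cancer lines that respond to androgen. The siRNAs were a control (siControl), one directed at CTBP1-AS, an antisense RNA of the corepressor gene CTBP1, and one directed at PSF, a protein that binds RNA and is the product of SFPQ. Cells then received vehicle or R1881, a synthetic androgen. LNCaP supplied 12 arrays in 3 sets: siControl and siCTBP1-AS with R1881 at 10 nM (set 1), siControl and an siCTBP1-AS marked #2 with R1881 at 1 nM (set 2), and siControl and siPSF with R1881 at 10 nM (set 3). VCaP supplied 6 arrays in 1 set: siControl, siCTBP1-AS marked #2 and siPSF, with R1881 at 1 nM. Every set held 1 vehicle and 1 R1881 array for each siRNA, so the groups had 3 arrays (LNCaP siControl), 2 (LNCaP siCTBP1-AS) or 1 (all others). Transfection preceded hormone by 48 h, and the medium held charcoal-treated serum for 3 days, at 2.5% for LNCaP and 5% for VCaP. The growth medium of both lines held 10% serum.

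Values are log2 signals, and the array medians differed between sets, from 5.73 to 5.75 in set 2 up to 6.75 to 6.85 in set 3. Differences were therefore taken within a set. No label ties the arrays to separate cultures. The p-values therefore reflect the spread of these samples alone, and that spread may be technical. Marker counts are of clusters with 1 gene symbol. Of 8 luminal prostate markers, 5 genes had such clusters, and these 7 clusters all lay above the array median in both lines. Of the 8 clusters for endothelial markers and the 6 for leukocyte markers, 1 each lay above it. For the 6 fibroblast markers this was 1 in LNCaP and 2 in VCaP. SFPQ, the target of siPSF, differed by -1.33 and -1.55 in the 2 VCaP pairs (limma, SE 0.12, adjusted p = 0.00234) and by -0.69 and -0.90 in the 2 LNCaP pairs (SE 0.13, adjusted p = 0.107). CTBP1-AS itself was not analysed here. In these bulk samples, fewer cells expressing a gene and less RNA per cell cannot be told apart.

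Of 4 genes described below, ERG, ETV1 and ELF3 passed a main test within a line. ELF5 did not, and passed only in a fit of both lines, added after seeing the values. The sequences before the start sites of these 4 genes are shown for their ETS cores. They are the 250 bases before the first listed start in RefSeq (GRCh38.p14), 5′ to 3′ on the strand of the gene, with GGAA and its reverse complement TTCC in capitals. The regions are chr21:38660668-38660917 (minus strand) for ERG, chr7:13990703-13990952 (minus) for ETV1, chr1:202010337-202010586 (plus) for ELF3 and chr11:34511725-34511974 (minus) for ELF5.
ERG: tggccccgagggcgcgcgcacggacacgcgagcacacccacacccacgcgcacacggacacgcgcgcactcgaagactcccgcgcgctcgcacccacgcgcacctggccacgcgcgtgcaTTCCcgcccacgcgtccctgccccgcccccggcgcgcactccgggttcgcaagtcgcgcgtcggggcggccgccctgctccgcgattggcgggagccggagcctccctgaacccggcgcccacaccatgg
ETV1: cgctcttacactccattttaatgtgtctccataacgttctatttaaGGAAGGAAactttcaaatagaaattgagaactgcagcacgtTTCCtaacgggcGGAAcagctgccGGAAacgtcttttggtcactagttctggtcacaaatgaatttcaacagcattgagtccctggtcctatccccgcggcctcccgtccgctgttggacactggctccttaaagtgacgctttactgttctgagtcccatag
ELF3: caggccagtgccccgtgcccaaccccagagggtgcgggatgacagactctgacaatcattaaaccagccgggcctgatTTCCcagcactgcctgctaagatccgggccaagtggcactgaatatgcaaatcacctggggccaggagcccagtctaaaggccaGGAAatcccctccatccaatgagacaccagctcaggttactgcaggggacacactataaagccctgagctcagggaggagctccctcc
ELF5: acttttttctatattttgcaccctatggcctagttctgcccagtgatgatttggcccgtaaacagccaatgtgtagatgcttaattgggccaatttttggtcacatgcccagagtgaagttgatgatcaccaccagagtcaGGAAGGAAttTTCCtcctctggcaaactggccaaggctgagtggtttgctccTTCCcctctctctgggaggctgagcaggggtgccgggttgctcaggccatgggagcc
The core occurred once upstream of ERG (1 copy), 5 times for ETV1, 2 times for ELF3 and 4 times for ELF5. GGAA on either strand is common: 95.5% of 35116 listed promoters of 300 bases (250 before and 50 after the start) held it, with a median of 3 copies and quartiles of 2 and 5. A longer ETS sequence, CCGGAAGT, was in 4.14% of all promoters and in none of these 4. AGAACA, the 6-base unit of the androgen response element, was in 14.8% of all promoters and occurred in 1 copy before ETV1, where it reads tgttct on the printed strand. ERG has 4 listed starts and ETV1 6, and the start used in these cells was not measured. In VCaP the fused ERG lies behind the start of TMPRSS2, not behind the sequence shown here.

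In the genome, 4 of the genes lie in neighbouring pairs. On chromosome 21, ERG (chr21:38367261-38661783) ends 143 kb before ETS2 (chr21:38805183-38824955). On chromosome 11, ELF5 (chr11:34478791-34513794) ends 107 kb before EHF (chr11:34621093-34663288). Gene lengths ranged from 6.6 kb for ELF3 through 100 kb for ETV1 to 295 kb for ERG.

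ERG separated the lines. On the 6 VCaP arrays its log2 signal was 10.38 with siControl and vehicle, 12.11 with siControl and R1881, 10.07 and 11.55 with siCTBP1-AS, and 9.01 and 10.20 with siPSF. On the 12 LNCaP arrays it was 5.03, 4.72, 5.02 and 5.03 in set 1, 3.92, 3.98, 3.91 and 3.91 in set 2 and 4.19, 4.45, 4.25 and 4.23 in set 3. The lines did not overlap: above each array's own median, ERG was at 2.77 to 5.87 (median 4.06) in VCaP and at -2.61 to -1.66 (median -1.84) in LNCaP.

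ETV1 showed the reverse. In LNCaP, in the order vehicle then R1881, its signal in set 1 was 11.05 and 11.63 for siControl, then 10.76 and 11.10 for siCTBP1-AS. Set 2 gave 9.53 and 10.16, then 8.71 and 9.54, for the same siRNAs. Set 3 gave 11.24 and 11.79 for siControl, then 10.58 and 10.79 for siPSF. In every pair the R1881 array was the higher, and every knockdown array was below the control array of its treatment. All 6 VCaP arrays lay between 3.36 and 3.65. Above the array median, ETV1 was at 2.96 to 5.03 (median 4.20) in LNCaP and at -2.90 to -2.59 (median -2.76) in VCaP.

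ELF5 was the third gene whose lines did not overlap. It lay at 2.42 to 3.20 above the array median in VCaP and at -0.83 to 1.24 in LNCaP. Every VCaP array lay above every LNCaP array for 11.9% of all annotated clusters and below for 9.27%, against 2 and 1 of the 9 ETS genes. The other 6 genes overlapped between the lines: EHF at 4.78 to 6.28 in LNCaP and 4.82 to 5.21 in VCaP, ELF3 at 1.08 to 3.45 and 2.44 to 3.11, ETS2 at -0.02 to 1.56 and 0.77 to 1.16, ETS1 at -1.58 to -0.83 and -1.38 to -0.82, ETV4 at -1.63 to -1.18 and -1.90 to -1.37, and ETV5 at -2.21 to -1.33 and -2.25 to -1.97. Array medians differed between sets and VCaP was 1 set, so line and set cannot be told apart, and these levels carry no test.

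**Figure D1:**
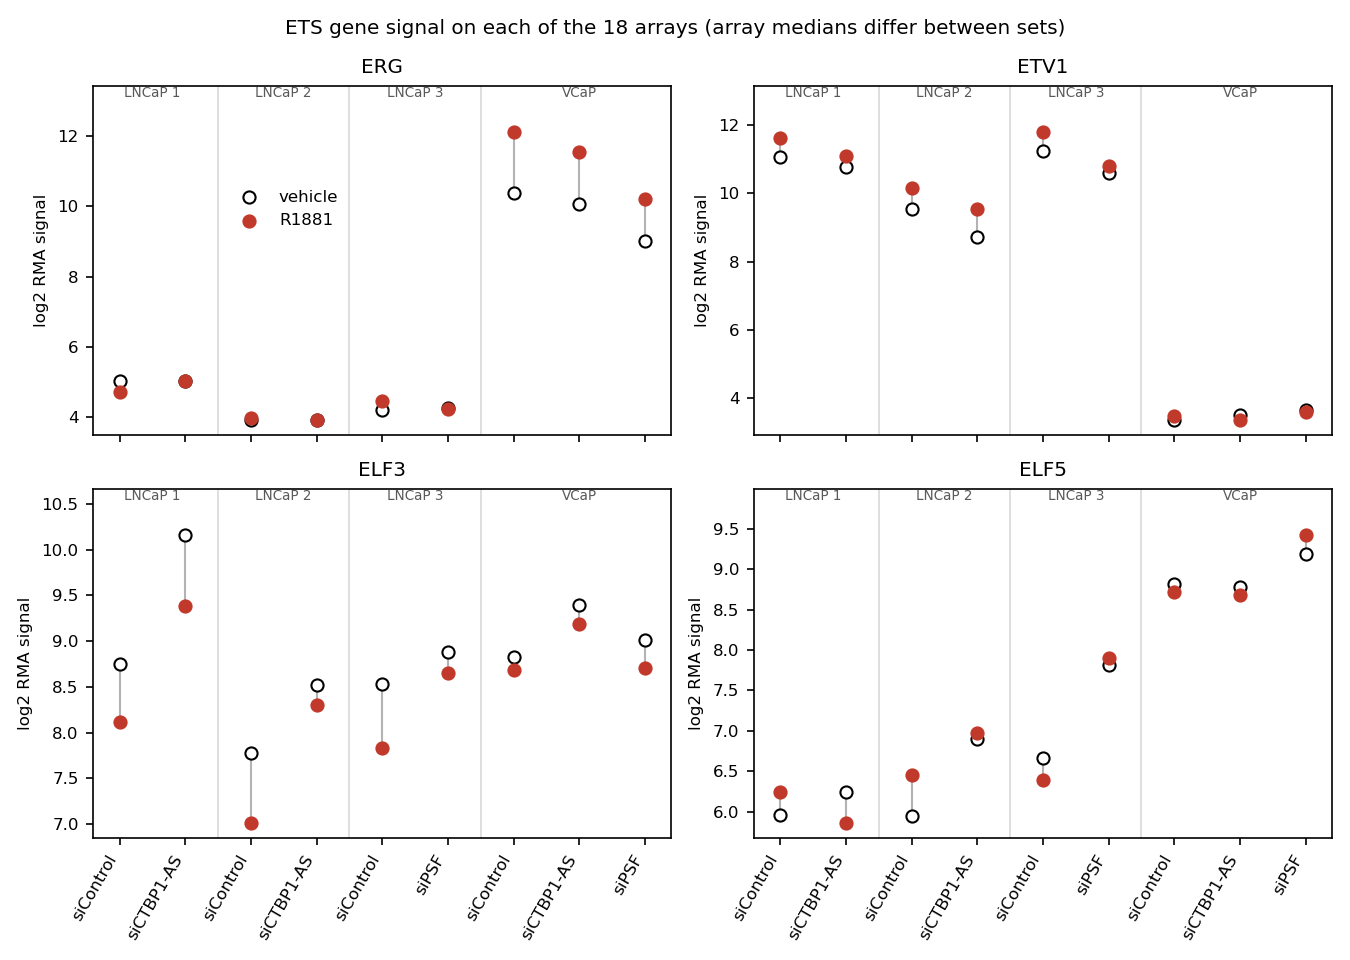
Log2 RMA signal (y axis) of ERG, ETV1, ELF3 and ELF5 on each of the 18 arrays, by set and siRNA (x axis), 1 array per point, open for vehicle and red for R1881, with a line joining each pair. ERG was at 9.01 to 12.11 in VCaP only, ETV1 was at 8.71 to 11.79 in LNCaP only, and array medians differed between sets, so heights are read within a set.

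The first question was which ETS genes respond to androgen. In LNCaP it was asked of the 6 siControl arrays, with the set as a block, and a change passed where limma's Benjamini-Hochberg adjusted p over all 21214 annotated clusters was at or under 0.05. ETV1 was 0.57, 0.64 and 0.55 higher with R1881 in sets 1, 2 and 3, a mean log2 difference of 0.59 (SE 0.10, adjusted p = 0.031). ELF3, an epithelial ETS factor, differed by -0.64, -0.77 and -0.70, a mean of -0.70 (SE 0.10, adjusted p = 0.0181). These were 2 of 9 genes, against 3.64% of all clusters (2.01% higher and 1.63% lower). ERG did not differ in a common direction, with pair differences of -0.31, 0.06 and 0.26. Both calls were lost without set 2 (ETV1 adjusted p = 0.184, ELF3 0.128) and without set 3 (0.129 and 0.0865), at values of 0.56 and 0.61 for ETV1 and of -0.67 and -0.70 for ELF3.

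In VCaP the response was averaged over the 3 siRNAs. ERG was 1.72 higher with R1881 under siControl, 1.48 under siCTBP1-AS and 1.19 under siPSF, which gave a mean of 1.46 (SE 0.12, limma adjusted p = 0.000333). All 3 R1881 arrays lay above their own vehicle array, although the siPSF array with R1881, at 10.20, lay below the siControl array with vehicle, at 10.38. ERG was the only 1 of the 9 genes to pass, against 19% of all clusters (8.71% higher and 10.3% lower). ELF3 differed by -0.15, -0.20 and -0.31 in the 3 pairs and did not pass (mean -0.22, SE 0.10, adjusted p = 0.163). Of the 6 fibroblast markers, only LUM passed in this comparison, at -3.87 (SE 0.27, adjusted p = 0.000171), and the mean level of the 6 was -0.43 to -0.14 on the vehicle arrays and -1.02 to -0.72 on the R1881 arrays. Its part in the ERG result was not tested.

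The ERG response differed between the lines by 1.46 (SE 0.15, limma adjusted p = 8.91e-05, all 18 arrays), and that of ETV1 by -0.56 (SE 0.15, adjusted p = 0.0469), among 5.6% of clusters that passed. With siControl arrays alone the ERG difference was 1.72 (SE 0.27) and its adjusted p 0.0503. The ETV1 difference lost its call with siControl arrays alone (-0.49, adjusted p = 0.404), without LNCaP set 1 (adjusted p = 0.0575) and without LNCaP set 2 (0.0685). ELF3 did not pass here (0.33, SE 0.16, adjusted p = 0.292). Doses differed as well, since only set 2 shared the 1 nM of VCaP. Relative to the array median, ERG lay at -2.61 to -1.66 in LNCaP and ETV1 at -2.90 to -2.59 in VCaP. At such signals a response could go undetected, so each difference adds little to the response within the other line.

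**Figure D2:**
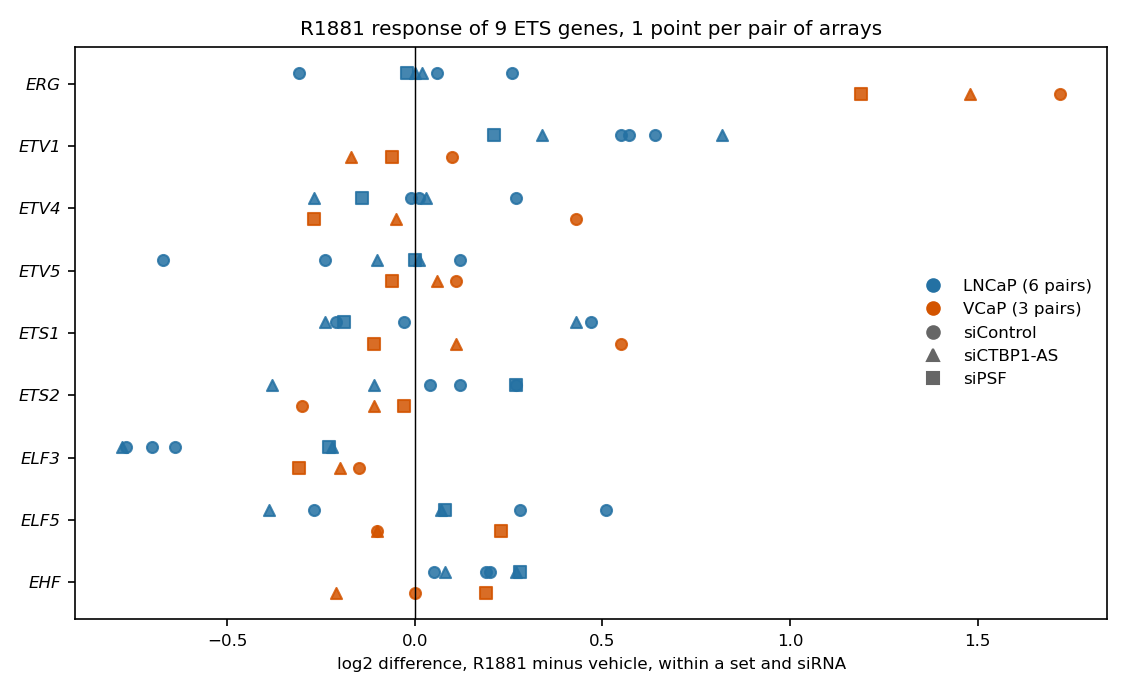
Log2 difference between R1881 and vehicle (x axis) for each of the 9 ETS genes (y axis), 1 point per pair of arrays, with 6 pairs in LNCaP (blue) and 3 in VCaP (orange) and the siRNA as the symbol. The 3 VCaP pairs of ERG sit at 1.19 to 1.72, away from its LNCaP pairs, which run from -0.31 to 0.26, and all 9 pairs of ELF3 lie below 0.

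The 5' partners of ETS fusions in prostate cancer were read beside the fused genes. TMPRSS2 shares a cluster with the annotation of FKBP5 and LOC285847, so its value cannot be given to 1 gene. That joint cluster was 3.51 higher with R1881 in LNCaP (SE 0.15, limma adjusted p = 0.000254) and 2.94 higher in VCaP (SE 0.14, adjusted p = 5.64e-05), where ERG gained 1.46. Of 9 partner genes with a cluster of their own, MIPOL1 included, 3 were higher in LNCaP and none lower: SLC45A3, a prostate transporter (3.04), KLK2, a kallikrein protease (2.86), and NDRG1 (2.53). In VCaP 5 were higher and none lower: SLC45A3 (2.87), KLK2 (0.82), CANT1 (0.81), NDRG1 (0.80) and HERPUD1 (0.66). Over all clusters 2.01% were higher in LNCaP and 8.71% in VCaP. The medians over the list were 0.342 and 0.664, beside -0.0104 and 0.0156 over all clusters. MIPOL1, the site reported for the moved ETV1 of LNCaP, differed by -0.07 in LNCaP while ETV1 gained 0.59.

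The second question was how knockdown of PSF or CTBP1-AS affects these genes, averaged over vehicle and R1881. In VCaP, ERG fell with siPSF. The differences were -1.37 with vehicle and -1.90 with R1881, a mean log2 difference of -1.64 (SE 0.15, limma adjusted p = 0.00282). Both siPSF arrays lay below both other arrays of the same treatment. VCaP had 1 array per siRNA and treatment, so the SE reflects how effects varied between treatments and siRNAs, not between repeated knockdowns. No other of the 9 genes passed, against 2.02% of all clusters (1.23% lower). The joint cluster of TMPRSS2, FKBP5 and LOC285847 differed by 0.03 with vehicle and -0.53 with R1881 (mean -0.25, SE 0.17, adjusted p = 0.582). In LNCaP, where ERG was near the bottom of the scale, its siPSF difference was -0.08 (SE 0.16). The difference between the lines, tested after seeing the values, was -1.56 (SE 0.21, adjusted p = 0.0108, among 0.193% of clusters).

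ERG spans 295 kb in RefSeq, but the length transcribed from its fusion in VCaP was not measured. Genes of at least 100 kb were lower more often with siPSF in VCaP. Of 3309 clusters of genes at least 100 kb long, 165 (4.99%) were lower in that comparison, against 87 of 16124 clusters of shorter genes (0.54%). The median differences in VCaP were -0.0598 for the long genes and -0.00334 for the shorter ones. In LNCaP, where 7 of all clusters passed for siPSF, 1 of the 3309 (0.0302%) was lower. The part of gene length in the fall of ERG was not tested.

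With siCTBP1-AS, ERG in VCaP differed by -0.31 with vehicle and -0.55 with R1881, which did not pass (mean -0.43, SE 0.15, limma adjusted p = 0.311). All 4 knockdown arrays of VCaP thus lay below the siControl array of the same treatment for ERG. ETV1 in LNCaP had a negative difference in all 6 pairs. The siCTBP1-AS pairs differed by -0.29 and -0.53 in set 1 and by -0.81 and -0.63 in set 2 (mean -0.56, SE 0.11, adjusted p = 0.0899), and the siPSF pairs by -0.65 and -0.99 (mean -0.82, SE 0.16, adjusted p = 0.16). Neither passed. Without set 1, whose pairs were nearer 0, the siCTBP1-AS value was -0.72. In VCaP, where ETV1 was near the bottom of the scale, the siPSF difference was 0.21 (SE 0.12, adjusted p = 0.51), and the difference between lines did not pass (1.03, SE 0.21, adjusted p = 0.0737).

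ELF3 was the 1 of the 9 genes that passed with siCTBP1-AS in LNCaP. Its siControl signal in LNCaP was 8.75 and 8.12 (vehicle, R1881) in set 1, 7.78 and 7.01 in set 2 and 8.53 and 7.83 in set 3. After siCTBP1-AS the values were 10.16 and 9.38 in set 1 and 8.52 and 8.30 in set 2, so both knockdown arrays of a set lay above both of its control arrays. The pairs differed by 1.41, 1.26, 0.74 and 1.29, a rise of 1.17 (SE 0.12, limma adjusted p = 0.0115) or 2.26-fold. The share of all clusters that passed was 0.599% (0.401% higher).

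In VCaP the siControl arrays of ELF3 were at 8.83 and 8.68, those of siCTBP1-AS at 9.39 and 9.19 and those of siPSF at 9.01 and 8.71. The siCTBP1-AS pairs differed by 0.56 and 0.51, and their mean of 0.54 (SE 0.12) had an adjusted p of 0.123, or 0.0349 with a mean-variance trend in limma. None of the 9 genes passed there, against 0.523% of clusters. The difference between the lines did not pass (-0.64, SE 0.20, adjusted p = 0.254). In a fit of both lines with a shared siCTBP1-AS term, added after seeing the values, ELF3 was 0.99 higher (SE 0.12, adjusted p = 0.00326, among 1.27% of clusters).

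ELF5, a factor known from mammary alveolar and placental cells, was higher with siPSF in all 4 pairs. In set 3 of LNCaP the siControl arrays were at 6.66 and 6.39, the siPSF arrays at 7.81 and 7.90, differences of 1.15 and 1.51 (mean 1.33, SE 0.28, limma adjusted p = 0.197). In VCaP the siControl arrays were at 8.82 and 8.72, the siPSF arrays at 9.19 and 9.42, differences of 0.37 and 0.70 (mean 0.53, SE 0.13, adjusted p = 0.104, or 0.0331 with a trend). Neither line passed alone, and only 7 clusters (0.033%) passed for siPSF in LNCaP, where that knockdown had 1 set. The siPSF difference between the lines did not pass (-0.80, SE 0.34, adjusted p = 0.408). With a term shared by both lines, also added after seeing the values, ELF5 was 0.97 higher (SE 0.18, adjusted p = 0.0162, among 1.24% of clusters). That term takes the effect as equal in both lines. With siCTBP1-AS its LNCaP pairs ran from -0.38 to 0.95 (mean 0.35, adjusted p = 0.457). Its set 1 pairs differed by 0.29 and -0.38, and the value was 0.74 without set 1.

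**Figure D3:**
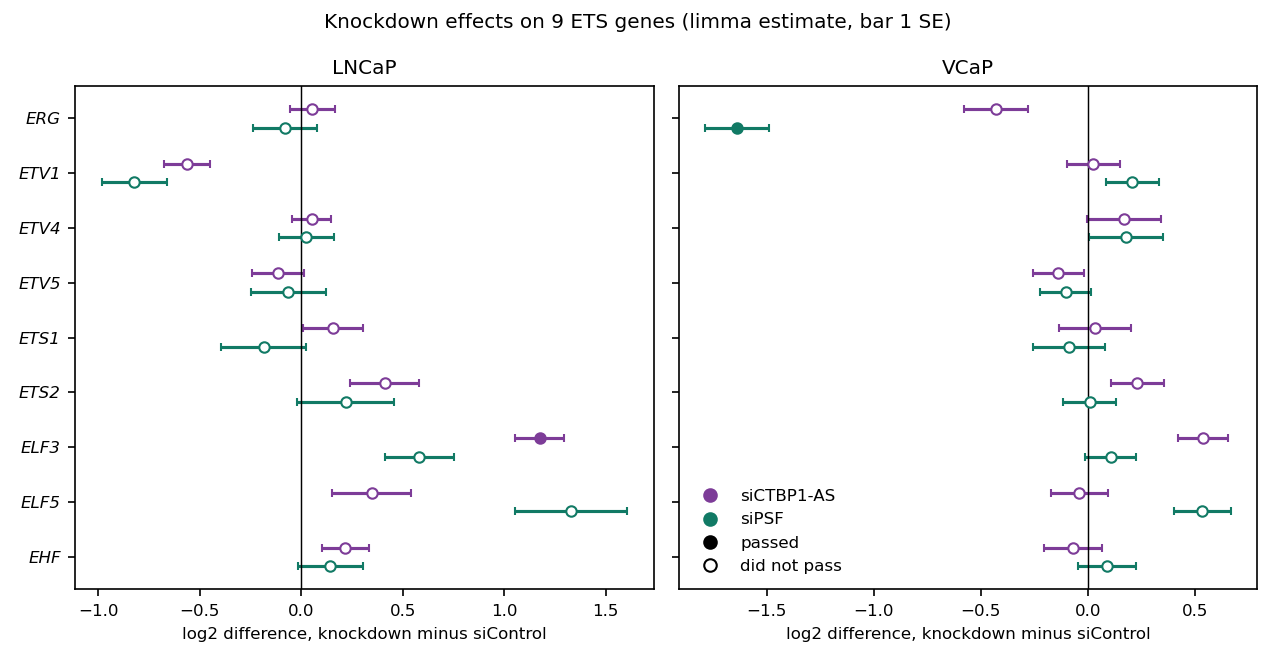
Log2 difference between each knockdown and siControl (x axis, different range in each panel) for the 9 ETS genes (y axis) in LNCaP and VCaP, as the limma estimate over vehicle and R1881 with a bar of 1 SE, filled where the adjusted p was at or under 0.05. The filled points are ELF3 with siCTBP1-AS in LNCaP, at 1.17, and ERG with siPSF in VCaP, at -1.64.

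Like ELF5, the remaining 5 genes passed in no main comparison within a line. EHF, the epithelial neighbour of ELF5, had a signal of 11.43 to 12.01 in LNCaP and 11.08 to 11.43 in VCaP, and its estimate farthest from 0 within a line was 0.22 (siCTBP1-AS in LNCaP, limma adjusted p = 0.426). ETS2, a broadly expressed factor that responds to RAS signalling, was 1.14 and 0.49 higher with siCTBP1-AS in set 1 but differed by 0.08 and -0.07 in set 2 (mean 0.41, SE 0.17, adjusted p = 0.303). ETS1, its close relative, and ETV4 and ETV5, which form the PEA3 group with ETV1, lay below the array median on all 18 arrays. At such signals these values show that no change was detected, not that none occurred.

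Whether a knockdown altered the R1881 response was tested in LNCaP. None of the 9 genes passed for siCTBP1-AS or siPSF, nor did any of the 21214 clusters (0% each) with limma. At an unadjusted p of 0.05, 495 (2.33%) and 327 (1.54%) clusters passed and 0 of the 9 genes in either test. The estimate farthest from 0 was 0.48 for ELF3 with siPSF (SE 0.28), where the R1881 difference was -0.70 with siControl and -0.23 with siPSF.

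Of the 19 other ETS genes listed, 18 had a cluster of their own. SPDEF, the prostate-derived epithelial member, had the largest R1881 response of the ETS genes measured in both lines: 2.13 in LNCaP (SE 0.11, limma adjusted p = 0.000493) and 1.71 in VCaP (SE 0.11, adjusted p = 0.000132). Its signal under siControl went from 9.44 to 11.62 in set 1, from 9.38 to 11.35 in set 2, from 9.72 to 11.97 in set 3 and from 10.92 to 12.76 in VCaP. In LNCaP 2 of 19 clusters were higher and none lower, the other being ELK4 (1.03, adjusted p = 0.0141), a partner of serum response factor that forms a read-through transcript with SLC45A3. In VCaP 2 were higher, SPDEF and ELF2 (0.81, adjusted p = 0.00242), and 1 was lower, ELK3 (-0.51, adjusted p = 0.0275). Over all clusters 3.64% passed in LNCaP and 19% in VCaP, so the 3 of 19 in VCaP are near the background. The list medians were 0.101 and 0.0527.

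With the knockdowns, SPIC was 1.65 higher after siCTBP1-AS in LNCaP (SE 0.23, limma adjusted p = 0.0284). ETV7, known as an interferon-induced member, was 0.76 higher after siPSF in VCaP (SE 0.11, adjusted p = 0.0214). Each was the only 1 of 19 clusters to pass there, against 0.599% and 2.02% of all clusters. Both had low signals. Relative to the array median, SPIC spanned -2.07 to 0.82 (median -0.94) in LNCaP and ETV7 -1.34 to -0.36 in VCaP. None of the list passed for siPSF in LNCaP or siCTBP1-AS in VCaP. A cluster of GABPA, a subunit of a housekeeping ETS factor, was the farthest from 0 in the latter (-0.96, SE 0.16, adjusted p = 0.0641). That cluster spanned 1.75 to 2.95 above the array median over the VCaP arrays. The other GABPA cluster spanned only 1.25 to 1.64, so it showed no fall of that size.

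**Figure D4:**
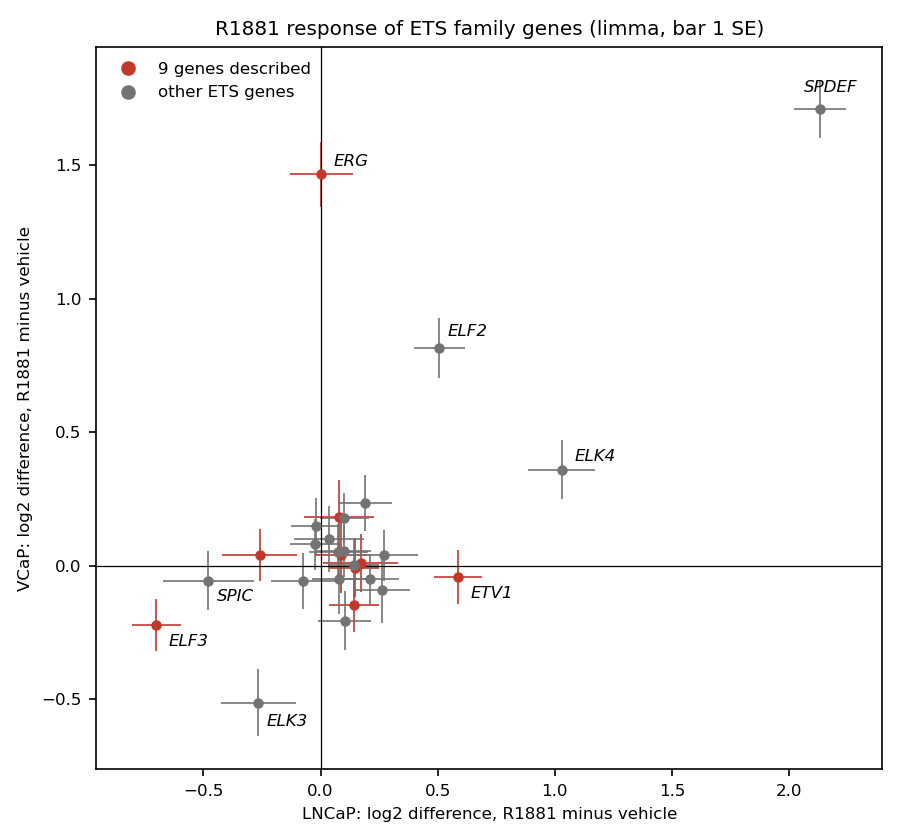
R1881 response (log2 difference from vehicle) of ETS family clusters with 1 gene symbol in LNCaP (x axis) and VCaP (y axis), as limma estimates with bars of 1 SE, red for the 9 genes described and grey for the others. SPDEF lies at 2.13 and 1.71, ERG at 0.00 and 1.46, and ELF3 at -0.70 and -0.22.

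Genes reported as ERG targets were read in the line that expresses ERG. Of 21 clusters for 20 genes, 9 (42.9%) were higher above the array median on every VCaP array than on any LNCaP array, against 11.9% of all clusters, and 2 (9.52%) were lower, against 9.27%. Likewise higher on every VCaP array were 5 of 11 MAPK output clusters (45.5%) and 2 of 7 luminal marker clusters (28.6%). TDRD1, a germline gene, was at 3.79 to 4.63 in VCaP and -2.52 to -0.90 in LNCaP. LEF1, a Wnt transcription factor, was at 5.05 to 5.54 and -0.29 to 2.38. VIM, the mesenchymal filament gene, went the other way, at -2.52 to -2.13 in VCaP and -0.74 to 0.39 in LNCaP. As above, line and set cannot be told apart.

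With R1881 in VCaP, where ERG rose, targets passed in both directions: SOX9 was higher (0.95, limma adjusted p = 0.00384) and EZH2 (-0.73), NCALD (-0.86) and ARHGDIB (-0.78) were lower, 1 and 3 of 21 clusters, with a median of -0.0789. Their 4 of 21 are near the background, where 19% of all clusters passed. SOX9, a transcription factor of prostate development, also differed from LNCaP in its response (1.06, SE 0.16, adjusted p = 0.00193). With siPSF in VCaP, none of the 21 clusters was higher and 2 were lower, against 1.23% of all clusters that were lower. The list median was -0.135, against -0.0145 over all clusters. The 2 were NCALD (-0.91, adjusted p = 0.0169) and the calcium channel gene CACNA1D (-0.71, adjusted p = 0.042). Both are long genes, of 438 kb and 319 kb. TDRD1 signals (vehicle, R1881) were 10.88 and 10.58 on the siControl arrays and 10.36 and 10.15 on the siPSF arrays.

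In LNCaP with R1881, ADAMTS1, a secreted protease (1.56), CRISP3 (0.82) and PLA1A (0.53) were higher and LEF1 (-0.70) was lower. These were 3 and 1 of 21 clusters, against 2.01% higher and 1.63% lower over all clusters. None of the targets passed for either knockdown in LNCaP or for siCTBP1-AS in VCaP. The MAPK output genes gave 1 higher and 0 lower of 11 in LNCaP with R1881 (DUSP4, 1.66) and 2 higher and 2 lower in VCaP (SPRED1 1.01, SPRY4 0.53, SPRY1 -0.42, EPHA4 -0.89), beside 3.64% and 19% of all clusters that passed. For siPSF in VCaP, only SPRY4 of the 11, an inhibitor of receptor kinase signalling, passed and was higher (0.79, limma adjusted p = 0.0384). Over all clusters 2.02% passed there. Of 8 clusters for regulators of ETS protein turnover or of PEA3 transcription, only ATXN1 passed, lower with R1881 in VCaP (-0.46, limma adjusted p = 0.0233). In that comparison 10.3% of all clusters were lower.

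The genes whose pattern was most like that of ERG over the 6 VCaP arrays, among 985 whose SD was at least 0.5 times that of ERG, were AHCYL2 (r = 0.994), HIPK2 (0.994), PDZRN3 (0.991), CACNG4 (0.991) and EGFR (0.986). For ETV1 over the 12 LNCaP arrays, as values minus the set mean and among 4797 genes, they were TBC1D16 (0.981), DRG2 (0.943), ZMIZ1 (0.940), THRB (0.926) and AASS (0.926). These correlations are descriptions, over arrays that share the same hormone and siRNA layout.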

How the data were processed

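RNA from 12 LNCaP and 6 VCaP samples was read on 1 gene-level array each. The authors deposited log2 signals, 1 per transcript cluster. The submitters' processing notes name RMA and version 1.1.1 of Affymetrix Expression Console. The grouping of arrays for normalization, the hormone duration and the meaning of #2 are not given in the sources used here. Depth has no equivalent on arrays, and the number of arrays limits precision. Gene names came from the platform annotation: 19460 clusters had 1 symbol, 1754 several and 12083 none, and the 1754 are named jointly where used. All 9 genes matched RefSeq.

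Tests used limma 3.58.1 in R 4.3.3 (lmFit and eBayes) on 21214 annotated clusters with no filter on low signal, Benjamini-Hochberg adjustment at 0.05, and the set (read from array names in the labels) as a block. LNCaP knockdown fits used 12 arrays with R1881, siRNA and product terms, and VCaP fits used 6 arrays with R1881 and siRNA terms. With 1 array per siRNA and treatment, the spread in the VCaP fits is not one between repeats. These fits leave 2 to 8 residual degrees of freedom among arrays, or 10 with shared siRNA terms. The shared-term estimate is not the mean of the sets. Replicate numbers pair the LNCaP siControl arrays, since arrays of 1 number share a set. Deviations from the group mean correlated at 0.792, 0.844 and 0.72 within a number, against -0.62 to -0.122 for other pairs. Deviations of 3 arrays from their mean sum to 0, which pulls the other pairs below 0. Sets also differ in level, so these values reflect the shared set and show no closer pairing. The code was tested on simulated data.

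The 9 genes and the lists were chosen with earlier results of these data known. Named genes are all 9 members, every list gene that passed, and up to 4 others per list with the largest changes; likeness is Pearson's r among genes whose SD is at least 0.5 times that of the member. SLC45A3 and the other partners, SFPQ, TDRD1, VIM and LEF1 levels, and gene length were added as context after their values were seen. Alternatives were a filter on the 25% dimmest clusters, 1 cluster per symbol, quantile normalization over 18 arrays, a mean-variance trend, no block, and arrays or sets left out.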

Additional observations from a re-analysis of the deposited data

Results flagged for a closer look

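The response of ERG to R1881 differed between the cell lines by 1.46 on the log2 scale (limma, adjusted p = 8.91e-05), with 3 of 3 pairs higher in VCaP and LNCaP pairs on both sides of 0. The response of ETV1 differed by -0.56 (adjusted p = 0.0469), with 6 of 6 pairs higher in LNCaP. The effect of siPSF on ERG differed by -1.56 (adjusted p = 0.0108), lower in 2 of 2 VCaP pairs. In each case the line with no detected response had the gene near the bottom of the signal scale, where a response could go undetected. The part of that low signal in the difference was not tested.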

How the results depend on the processing

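Counts are of the 9 genes passing limma's adjusted p of 0.05, and no estimate of a gene that passed changed sign under any alternative run. For the R1881 response in LNCaP (2 genes), no gene passed without the replicate block (0), and leaving out a replicate pair gave 0 to 2. For the siCTBP1-AS effect in LNCaP (1 gene), 0 passed without the block, and leaving out a replicate gave 1 to 3. Sets differ in level, and a fit without the block counts that as spread. The siCTBP1-AS replicates of LNCaP differ in siRNA label, R1881 dose and set, so leaving 1 out changes these together. For the difference in R1881 response between lines (2 genes), 1 passed after quantile normalization, 0 with siControl arrays only, 1 without LNCaP set 1 and 1 without set 2, the last 2 added after seeing the data. With a mean-variance trend, 1 gene passed for siCTBP1-AS in VCaP (main 0) and 2 for siPSF in VCaP (main 1).

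Over all clusters, the counts that moved over 1.5 times were, for R1881 in LNCaP (772), 32 without the block, 1529, 183 and 368 without replicate 1, 2 and 3, and 1538 with all 12 arrays. R1881 in VCaP (4036) gave 2593 without the siPSF pair, and the line difference (1187) 737 with set 2 and VCaP and 162 with siControl arrays. The siCTBP1-AS effect in LNCaP (127) gave 0 without the block and 1939 without replicate 1, and siPSF in LNCaP (7) gave 1 with the filter on dim clusters, 0 without the block and 92 without product terms. In VCaP, siCTBP1-AS (111) gave 176 with that filter, 399 with a trend and 32 on its own 4 arrays with siControl, and siPSF (429) gave 1038 with a trend. Over both lines siCTBP1-AS (269) gave 434 with the filter, and the change of the R1881 response with siCTBP1-AS (0) gave 9 without replicate 1.

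The filter on dim clusters leaves out ERG in LNCaP fits, ETV1 in VCaP fits, and ETV4, ETV5 and ETS1 in both, so only 5 of the 9 genes are tested within a line. No cause was tested for these shifts.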
